A study of Mus musculus with 40 samples.

Results

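Kidneys of mice given human umbilical cord mesenchymal stromal cells after ischaemia-reperfusion injury (UC-MSC, n = 4) were set against kidneys taken 6 h after reperfusion, whose labels name no cells (IRI 6 h, n = 4). These are 8 of the 40 samples of the series, chosen by their labels, with values from the therapy table for UC-MSC and from the temporal table for IRI 6 h. All mice were labelled wild-type C57bl/6, and total RNA of the kidney was sequenced. The design text calls the cells human and the sample labels call them primary. A treatment protocol says that cells were given directly after blood flow returned, in the anaesthesia of the surgery; it is attached to the IRI 6 h and AKI records, whose own labels name no cells. The labels of the UC-MSC kidneys give no time of collection, so cell treatment and time after reperfusion cannot be told apart here. Nor do they give cell dose or route, or say that replicates are separate animals, so p-values measure only how far these samples scatter, which could be technical. The BM-MSC, AKI and Control groups, with 4 libraries each, were also used. BM-MSC kidneys had the same injury and human bone marrow stromal cells, AKI kidneys had the injury and were also labelled 6 h after reperfusion, and Control kidneys carry no treatment label. The same Control counts stand in both tables, and gene names whose Control counts differed were left out.

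Ischaemia-reperfusion injury stops and then restores renal blood flow. It damages mainly the proximal tubule and the thick ascending limb, cells that depend on mitochondrial respiration, and is followed by stress signalling, recruitment of leukocytes and a wave of tubule cell proliferation. Mesenchymal stromal cells are connective tissue cells given for their secreted factors and, in some settings, for mitochondria that pass to injured cells through connexin channels and membrane nanotubes. PGC-1alpha, encoded by Ppargc1a, is the coactivator that drives transcription of nuclear genes for mitochondria in the tubule. The series title names mitochondrial transfer, oxidative stress with inflammation, and PGC-1alpha, so genes of these themes were read out beside those of tubule segments and the cell cycle.

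Total counts were 12949029 to 15967232 per UC-MSC library and 13313097 to 17533712 per IRI 6 h library. Some libraries stood apart from their groups. IRI 6 h library 1 correlated at 0.948 to 0.957 with the other IRI 6 h libraries across genes in log2 CPM (counts scaled to a common library size, with a prior count of 2), and at 0.966 with UC-MSC library 1. UC-MSC library 1 in turn was closest to BM-MSC library 4, at 0.977, and UC-MSC library 4 correlated at 0.937 to 0.959 with its own group. These correlations run across genes, which are not independent replicates. UC-MSC library 1 lay inside the IRI 6 h range for 30.3% of the genes called below, the other UC-MSC libraries for 5.33% to 10.3%. For 34.7% of these genes IRI 6 h library 1 lay inside the UC-MSC range, the other IRI 6 h libraries for 4.41% to 7.01%. Counts of called list members are also given from a fit without IRI 6 h library 1 and UC-MSC library 4 (the trimmed fit), a choice made after the values were seen. The trimmed fit keeps UC-MSC library 1, so it is not free of libraries that stood apart. The kidney label held for tubule markers: the phosphate transporter Slc34a1, of the proximal tubule, had 1502, 838, 581 and 2802 CPM in UC-MSC libraries, against 699, 2155, 2581 and 2315 CPM in IRI 6 h libraries.

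Of 16490 genes tested, 3809 (23.1%) differed between UC-MSC and IRI 6 h at an adjusted p under 0.05 (edgeR quasi-likelihood test on 16 libraries of UC-MSC, IRI 6 h, BM-MSC and Control, Benjamini-Hochberg adjustment). Of all genes, 1922 (11.7%) were called higher and 1887 (11.4%) lower in UC-MSC, and 1334 (8.09%) were called with at least a 2-fold difference. The ranges of the groups did not overlap for 2717 genes (16.5%), of which 2227 were called. That test shares one estimate of spread across 4 groups, of which Control, with correlations of 0.984 to 0.989 between libraries, was the tightest. Fitted on the 8 libraries of the comparison alone (the 8-library fit), 901 genes of 15524 (5.8%) were called, 899 of them called above, with 449 (2.89%) higher and 452 (2.91%) lower. Left out in turn, UC-MSC libraries 1 to 4 gave 28.9%, 14%, 18.2% and 21.8% of all genes called. The shares were 14.7%, 7.09%, 9.58% and 10.6% for genes called higher and 14.2%, 6.89%, 8.57% and 11.2% lower. For IRI 6 h libraries 1 to 4 they were 31.7%, 12.5%, 13% and 15% called, 16.8%, 5.96%, 6.18% and 7.58% higher and 14.9%, 6.52%, 6.83% and 7.4% lower. The trimmed fit called 5888 genes (35.1%), 3330 of them called above, with 17.5% higher and 17.6% lower. Counts of list members below are to be read beside these shares of all genes in the same fit. Below, the count of a list in a fit that left out 1 library is given where it moved by over 1.5 times and reached 3 in either fit. The same IRI 6 h libraries also differed from the AKI libraries, which carry the same 6 h label and whose labels name no cells, at 5800 of 16821 genes (34.5%) in the same test with 20 libraries. BM-MSC libraries differed from them at 423 genes (2.57%), 167 (1.01%) higher and 256 (1.55%) lower in BM-MSC. AKI values stand beside those of the leading genes.

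Ppargc1a was lower in UC-MSC kidneys. It had 34.1, 31.2, 19.9 and 23.4 CPM in UC-MSC libraries, against 91.8, 85.9, 111 and 104 CPM in IRI 6 h libraries. The groups did not overlap, and each UC-MSC library was also below the Control mean of 74.2 ± 1.83 CPM (SD, n = 4). The difference passed the test (log2 fold change -1.85 ± 0.18 (SE), adjusted p = 0.00013, or 0.017 in the 8-library fit). The log2 fold change of UC-MSC over Control was -1.45 ± 0.18 (SE), adjusted p = 3.1e-05, and that of IRI 6 h over Control was 0.40 ± 0.17 (SE), adjusted p = 0.074. In AKI libraries Ppargc1a had 74.0, 41.2, 32.3 and 49.8 CPM, and AKI over the same IRI 6 h libraries gave -0.97 ± 0.22 (SE), adjusted p = 0.0025.

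Of the 21 members of a list of PGC-1 coactivators and mitochondrial biogenesis genes, 6 were called lower and 2 higher, with a median log2 fold change of 0.10 beside 0.02 over all genes tested. Esrra, the nuclear receptor partner of PGC-1alpha, had 120.1, 91.9, 82.7 and 86.2 CPM in UC-MSC libraries, against 136, 159, 166 and 167 CPM in IRI 6 h libraries. UC-MSC values all lay below IRI 6 h values (log2 fold change -0.72 ± 0.15 (SE), adjusted p = 0.0051, or 0.039 in the 8-library fit). Tfb1m, a mitochondrial rRNA methyltransferase, had 5.24, 3.03, 3.04 and 2.57 CPM in UC-MSC libraries, against 4.72, 7.86, 7.89 and 7.77 CPM in IRI 6 h libraries, with IRI 6 h library 1 inside the UC-MSC range (log2 fold change -1.01 ± 0.23 (SE), adjusted p = 0.0075, or 0.068 in the 8-library fit). Gabpa, a DNA-binding subunit of nuclear respiratory factor 2, was higher in each UC-MSC library (log2 fold change 0.59 ± 0.14 (SE), adjusted p = 0.0076, or 0.064 in the 8-library fit). Tfam, which packages mitochondrial DNA, had 45.7, 56.4, 46.4 and 67.9 CPM in UC-MSC libraries, against 32.3, 50.2, 46.3 and 56.3 CPM in IRI 6 h libraries, and the groups overlapped (log2 fold change 0.22 ± 0.16 (SE), adjusted p = 0.32). Members of the PGC1 coactivators and biogenesis list called in the trimmed fit were 4 higher and 7 lower, and in the 8-library fit 0 and 2.

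Genes of the respiratory chain did not pass the test. Of 59 nuclear-encoded members of complexes I to IV and ATP synthase, 0 were called by edgeR or by DESeq2, and 2 had an unadjusted p under 0.05. Without UC-MSC library 4, 17 of the 59 were called lower and 0 higher, and 26 were called lower without IRI 6 h library 1 as well. Of 15 mitochondrially encoded transcripts, 10 were left out of the join and 5 were tested, and 0 were called by edgeR or DESeq2, with 1 at an unadjusted p under 0.05. Among 17 genes of mitochondrial dynamics and mitophagy, 2 were called lower and 3 higher. Mtfp1, an inner membrane protein that promotes fission, had 9.32, 6.74, 6.21 and 7.03 CPM in UC-MSC libraries, against 10.6, 24.1, 22.7 and 23.5 CPM in IRI 6 h libraries. IRI 6 h library 1 was the nearest of its group to UC-MSC, without overlap (log2 fold change -1.46 ± 0.25 (SE), adjusted p = 0.0018, or 0.031 in the 8-library fit). The inner membrane protease Oma1 was also lower (log2 fold change -0.61 ± 0.12 (SE), adjusted p = 0.0035, or 0.041 in the 8-library fit), and Bnip3, a hypoxia-induced mitophagy receptor, was higher (log2 fold change 1.03 ± 0.23 (SE), adjusted p = 0.0065, or 0.059 in the 8-library fit). The mitochondrial DNA transcripts list had 1 higher and 0 lower in the trimmed fit, against 0 and 0 in the 8-library fit. For mitochondrial dynamics and mitophagy, the trimmed fit called 4 higher and 2 lower and the 8-library fit 0 and 2. Single omissions gave 6 higher without UC-MSC library 1.

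**Figure D1:**
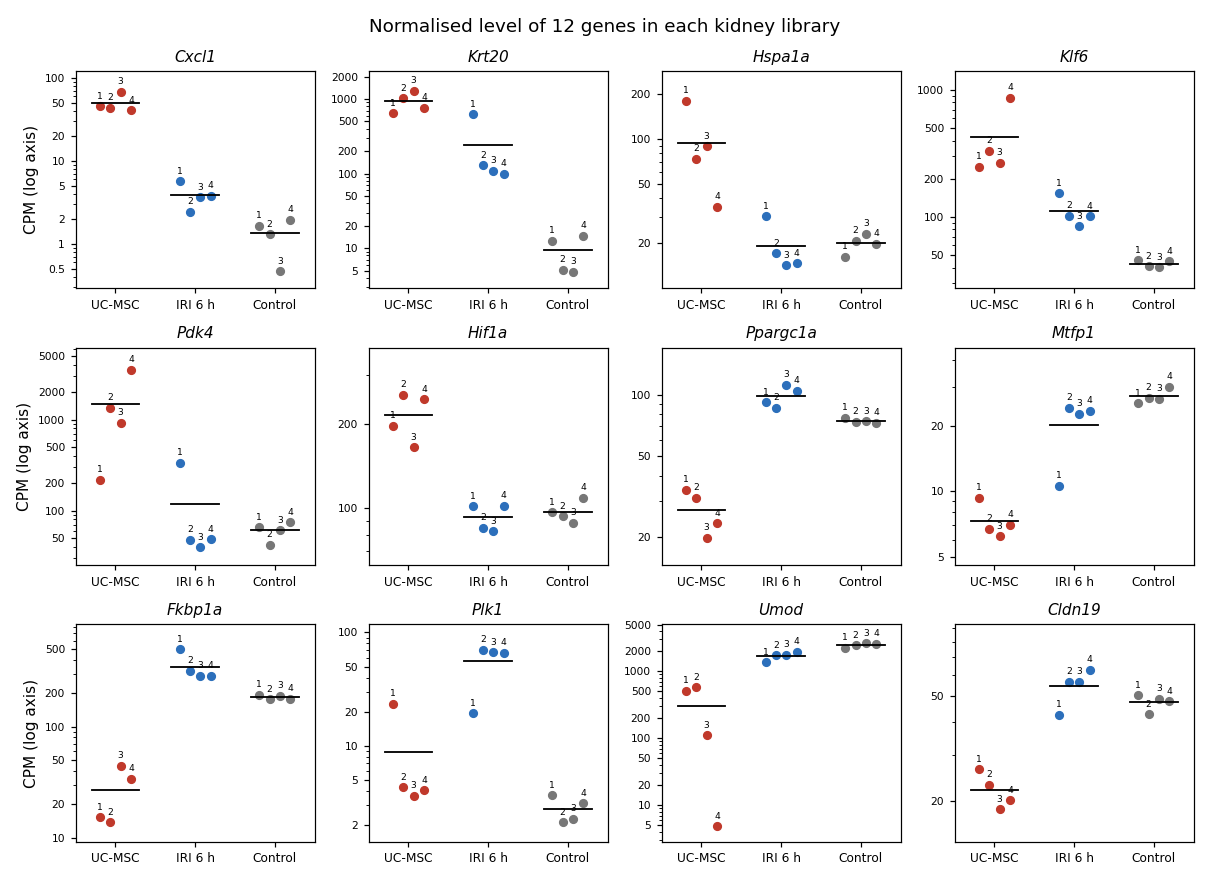
Level of 12 genes in each library of UC-MSC, IRI 6 h and Control, in CPM on a log axis; points are libraries with their replicate numbers, black lines are group means. Ppargc1a, Hif1a, Fkbp1a, Cldn19 and Cxcl1 have separate UC-MSC and IRI 6 h values, while for Pdk4 and Plk1 the IRI 6 h library 1 falls among the UC-MSC libraries.

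Cell cycle genes were lower in UC-MSC than in IRI 6 h kidneys, and most were called above Control in both groups. Of 25 members tested, of 26 listed, 24 were called lower and 0 higher, with the 25th, the S-phase cyclin Ccne2, short of the threshold (log2 fold change -1.49 ± 0.55 (SE), adjusted p = 0.06). The median log2 fold change was -2.11, beside 0.02 over all genes. Set against Control, the median of the same 25 genes was 1.63 in UC-MSC, where 19 were called higher and 1, the G1 cyclin Ccnd1, lower, beside 26.7% of all genes called higher. It was 3.54 in IRI 6 h, where 24 were called higher and 0 lower, beside 20.7% of all genes. Summed over the tested members, which include Ccnd1, UC-MSC libraries had 1028, 382, 335 and 276 CPM. Control libraries had 346, 315, 308 and 351 CPM, so in this sum UC-MSC library 1 alone stood far above Control. Without UC-MSC library 1, the median of UC-MSC over IRI 6 h was -3.04. Over all genes, 50.2% were called between UC-MSC and Control and 38.8% between IRI 6 h and Control. These comparisons share their libraries, so each is given with its own values. AKI over the same IRI 6 h libraries had 14 called lower and 0 higher, beside 17.6% of all genes called lower, with a median of -2.40. Of the cell cycle members, 0 were called higher and 25 lower in the trimmed fit, and 0 and 7 in the 8-library fit.

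Plk1, the kinase that drives entry into and exit from mitosis, had 23.3, 4.32, 3.63 and 4.06 CPM in UC-MSC libraries, against 19.4, 70.4, 66.5 and 65.9 CPM in IRI 6 h libraries. UC-MSC library 1 and IRI 6 h library 1 were the outer libraries of their groups and lay close together, and the groups overlapped there (log2 fold change -2.63 ± 0.56 (SE), adjusted p = 0.0051, or 0.052 in the 8-library fit). Cdc20, the activator of the anaphase-promoting complex, had 49.3, 9.71, 6.60 and 8.81 CPM in UC-MSC libraries, against 28.1, 136, 134 and 122 CPM in IRI 6 h libraries. The same 2 libraries again met in the middle (log2 fold change -2.48 ± 0.59 (SE), adjusted p = 0.0086, or 0.068 in the 8-library fit). Ccna2, cyclin A2 of S phase and G2, showed the same arrangement, with 37.0, 5.33, 3.88 and 5.15 CPM in UC-MSC libraries, against 22.7, 79.5, 88.8 and 87.4 CPM in IRI 6 h libraries (log2 fold change -2.42 ± 0.63 (SE), adjusted p = 0.014, or 0.081 in the 8-library fit). Tk1, the thymidine kinase of S phase, had 39.4, 10.8, 11.5 and 6.14 CPM in UC-MSC libraries, against 51.7, 118, 118 and 103 CPM in IRI 6 h libraries, with no overlap (log2 fold change -2.51 ± 0.47 (SE), adjusted p = 0.0028, or 0.039 in the 8-library fit).

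Cell cycle genes also filled most of the 10 largest falls among called genes with separate ranges and an average log2 CPM of 3 or more. Besides Tk1 these were the chromosomal passenger subunits Aurkb (-2.28) and Cdca8 (-2.37), the cohesion factor Cdca5 (-2.11), the histone chaperone Asf1b (-1.93), the replicative helicase subunit Mcm5 (-1.92) and the DNA polymerase epsilon subunit Pole (-1.92), all as log2 fold changes. Their adjusted p-values ran from 0.0037 to 0.011. The remaining 3 of these 10 falls were Fkbp1a, Umod and Spns3. Fkbp1a, the FK506-binding immunophilin, had 15.2, 13.7, 44.7 and 33.96 CPM in UC-MSC libraries, against 501, 319, 288 and 286 CPM in IRI 6 h libraries, and each UC-MSC value was far below each IRI 6 h value (log2 fold change -3.70 ± 0.33 (SE), adjusted p = 8.8e-05, or 0.018 in the 8-library fit). Spns3, a putative sphingolipid transporter, had 4.52, 3.57, 3.43 and 1.39 CPM in UC-MSC libraries, against 11.4, 18.8, 16.6 and 14.01 CPM in IRI 6 h libraries (log2 fold change -2.21 ± 0.35 (SE), adjusted p = 0.0012, or 0.023 in the 8-library fit). The call that was lost when 1 library was left out was Umod (without UC-MSC library 3 or IRI 6 h library 2, 3 or 4, adjusted p up to 0.072).

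Promoters of cell cycle genes are known to carry CCAAT boxes, bound by NF-Y, and the element TTTGAA, a form of the cell cycle genes homology region. Of the 24 members called lower, 20 had a promoter window of 300 bases in RefSeq (build GRCm38.p6, 250 bases before to 50 after the start). CCAAT, on either strand, stood in 16 of the 20, against 37.4% of all 32851 windows, and TTTGAA, on either strand, in 9, against 17.9% of all windows. A member was counted if any of its windows matched, while the shares are of single windows, so the units differ. Nearly all tested members were called lower, so these counts describe the cell cycle list as such. The windows of Plk1 and Cdc20 hold both and are shown for that reason, written 5′ to 3′ on the gene's strand with CCAAT and TTTGAA in capitals; no match overlaps another. The Plk1 window lies at chr7:122159185-122159484 on the plus strand and the Cdc20 window at chr4:118437294-118437593 on the minus strand.
Plk1: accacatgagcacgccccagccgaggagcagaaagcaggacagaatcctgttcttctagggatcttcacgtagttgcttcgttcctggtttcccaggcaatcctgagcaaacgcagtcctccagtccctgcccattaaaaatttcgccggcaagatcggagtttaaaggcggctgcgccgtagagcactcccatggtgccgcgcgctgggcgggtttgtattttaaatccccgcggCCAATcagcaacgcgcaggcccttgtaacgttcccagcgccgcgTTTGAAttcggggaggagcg
Cdc20: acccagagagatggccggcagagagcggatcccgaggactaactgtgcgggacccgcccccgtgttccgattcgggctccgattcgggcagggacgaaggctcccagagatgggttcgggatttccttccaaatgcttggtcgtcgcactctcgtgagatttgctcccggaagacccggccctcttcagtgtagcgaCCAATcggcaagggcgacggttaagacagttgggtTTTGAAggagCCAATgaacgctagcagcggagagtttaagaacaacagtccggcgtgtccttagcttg
A match is a description of the letters, and binding was not measured.

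**Figure D2:**
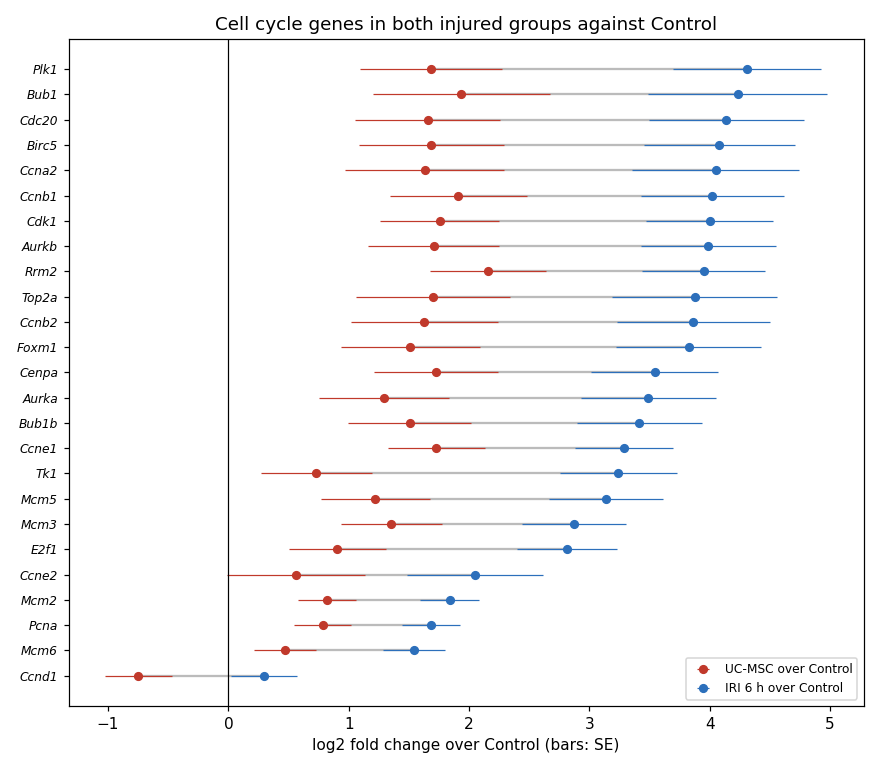
Log2 fold change over Control of the 25 cell cycle genes tested, with UC-MSC in red and IRI 6 h in blue; bars are SE and grey lines join the 2 values of a gene. UC-MSC lies left of IRI 6 h for each gene, and Ccnd1 alone is below Control in UC-MSC.

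Growth arrest genes include targets of p53, the factor that halts dividing cells after damage. Of 20 tested members of a mixed list of p53 targets and growth arrest genes, 8 were called higher and 0 lower, with a median of 0.54. Over all genes, 11.7% were called higher and 11.4% lower. Cdkn1a, the p21 inhibitor of cyclin-dependent kinases, had 246, 329, 367 and 1221 CPM in UC-MSC libraries, against 388, 98.4, 85.1 and 75.7 CPM in IRI 6 h libraries. UC-MSC library 4 was the highest and IRI 6 h library 1 fell inside the UC-MSC range (log2 fold change 1.74 ± 0.55 (SE), adjusted p = 0.032, or 0.12 in the 8-library fit). The antiproliferative factor Btg2 had 89.4, 195, 189 and 599 CPM in UC-MSC libraries, against 125, 52.3, 55.5 and 48.1 CPM in IRI 6 h libraries, again with IRI 6 h library 1 in the UC-MSC range (log2 fold change 1.93 ± 0.44 (SE), adjusted p = 0.0073, or 0.068 in the 8-library fit). Trp53inp1, a p53-induced stress protein, was higher without overlap, with 57.7, 113, 82.9 and 171 CPM in UC-MSC libraries, against 35.1, 42.4, 32.1 and 47.5 CPM in IRI 6 h libraries (log2 fold change 1.43 ± 0.26 (SE), adjusted p = 0.0026, or 0.039 in the 8-library fit). Gadd45b, a growth arrest and DNA damage protein, also rose (log2 fold change 1.26 ± 0.30 (SE), adjusted p = 0.0092, or 0.048 in the 8-library fit). Members of the p53 targets and growth arrest list called in the trimmed fit were 9 higher and 0 lower, and in the 8-library fit 3 and 0. Omitting 1 library gave 4 higher without UC-MSC library 4 or IRI 6 h library 2 or 3 and 5 higher without IRI 6 h library 4. With 1 library left out, the threshold was missed by Cdkn1a (without UC-MSC library 4 or IRI 6 h library 2, 3 or 4, adjusted p up to 0.14).

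Thick ascending limb cells reabsorb salt and secrete uromodulin. Of 15 members, 6 were called lower and 0 higher, with a median of -0.34. Umod, uromodulin, the main protein secreted by this segment, had 509.7, 578, 111 and 4.85 CPM in UC-MSC libraries, against 1362, 1744, 1747 and 1945 CPM in IRI 6 h libraries. UC-MSC library 4 was far below the others of its group, at 4.85 CPM, and all 4 were below IRI 6 h (log2 fold change -2.50 ± 0.77 (SE), adjusted p = 0.029, or 0.13 in the 8-library fit). Cldn19, the tight junction claudin for magnesium and calcium uptake, had 26.5, 23.1, 18.7 and 20.2 CPM in UC-MSC libraries, against 42.4, 56.7, 56.5 and 62.6 CPM in IRI 6 h libraries. The UC-MSC libraries lay close together and below the IRI 6 h libraries (log2 fold change -1.30 ± 0.14 (SE), adjusted p = 0.00018, or 0.022 in the 8-library fit), and IRI 6 h over Control was 0.20 ± 0.13 (SE), adjusted p = 0.23. Sostdc1, a secreted BMP and Wnt antagonist, was lower without overlap (log2 fold change -1.57 ± 0.29 (SE), adjusted p = 0.0028, or 0.048 in the 8-library fit). Bsnd, the chloride channel subunit barttin, was lower with IRI 6 h library 1 inside the UC-MSC range (log2 fold change -1.20 ± 0.23 (SE), adjusted p = 0.0032, or 0.048 in the 8-library fit). Egf, made in the distal nephron, had 253, 97.6, 48.4 and 549 CPM in UC-MSC libraries, against 60.1, 115, 124 and 155 CPM in IRI 6 h libraries, with overlap (log2 fold change 1.06 ± 0.54 (SE), adjusted p = 0.16). In bulk tissue, fewer cells of a type and less RNA per cell cannot be told apart. The thick ascending limb list had 1 higher and 9 lower in the trimmed fit, against 0 and 3 in the 8-library fit. When 1 library was dropped there were 3 lower without UC-MSC library 3 or IRI 6 h library 2, 3 or 4.

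Of 20 proximal tubule genes of segments S1 and S2, 4 were called lower and 1 higher, with a median of -0.36, or -1.02 in the trimmed fit. Summed over the list, UC-MSC libraries had 12190, 16570, 9459 and 34337 CPM. IRI 6 h libraries had 10069.5 to 20069 CPM and Control libraries 26007 to 30476 CPM. UC-MSC library 4, the highest of these, is left out of the trimmed fit. The lactate cotransporter Slc5a12 had 113, 53.9, 31.8 and 35.8 CPM in UC-MSC libraries, against 85.6, 178, 229 and 238 CPM in IRI 6 h libraries (log2 fold change -1.64 ± 0.41 (SE), adjusted p = 0.011, or 0.06 in the 8-library fit). The dicarboxylate cotransporter Slc13a3 had 397, 286, 168 and 259 CPM in UC-MSC libraries, against 271, 903, 1080.1 and 922 CPM in IRI 6 h libraries (log2 fold change -1.51 ± 0.35 (SE), adjusted p = 0.0079, or 0.06 in the 8-library fit). For both genes IRI 6 h library 1 fell inside the UC-MSC range and the other 3 lay above it. The basolateral amino acid transporter Slc7a7 was also lower (log2 fold change -1.06 ± 0.27 (SE), adjusted p = 0.013, or 0.046 in the 8-library fit), while the neutral amino acid transporter Slc6a19 was higher (log2 fold change 1.19 ± 0.39 (SE), adjusted p = 0.037, or 0.065 in the 8-library fit). Slc34a1, given above, overlapped (log2 fold change -0.44 ± 0.46 (SE), adjusted p = 0.52). For proximal tubule S1 and S2, the trimmed fit called 1 higher and 13 lower and the 8-library fit 0 and 2. Counts also moved to 8 lower without IRI 6 h library 1. Leaving out 1 library ended the call of Slc6a19 (without UC-MSC library 2 or 3 or IRI 6 h library 2, 3 or 4, adjusted p up to 0.11).

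In segment S3, 2 of 17 members were called higher and 1 lower, beside 11.7% and 11.4% of all genes. Both rises were lost without UC-MSC library 4. The organic anion transporter Slc22a7 had 31.3, 21.2, 17.4 and 451 CPM in UC-MSC libraries, against 32.3, 15.1, 15.5 and 17.0 CPM in IRI 6 h libraries, so 3 UC-MSC libraries lay among those of IRI 6 h (log2 fold change 2.70 ± 0.86 (SE), adjusted p = 0.034, or 0.12 in the 8-library fit). Cyp7b1, an oxysterol hydroxylase, had 46.0, 21.3, 20.9 and 209.7 CPM in UC-MSC libraries, against 13.8, 18.9, 12.3 and 22.5 CPM in IRI 6 h libraries (log2 fold change 2.13 ± 0.59 (SE), adjusted p = 0.019, or 0.094 in the 8-library fit). Summed over the list, S3 genes stood at 14276 CPM in UC-MSC library 4 and 3547 to 4269 CPM in the other UC-MSC libraries, against 2279 to 5282 CPM in IRI 6 h and 16132 to 17943 CPM in Control libraries. Of 15 distal convoluted and connecting tubule genes tested, 2 were called higher and 3 lower. Of 12 principal cell genes tested, 1 was called higher and 1 lower, both lists beside 11.7% and 11.4% of all genes. In the distal nephron, calbindin, encoded by Calb1 and a calcium buffer of the connecting tubule, had 117, 197, 108 and 294 CPM in UC-MSC libraries, against 99.9, 78.7, 69.6 and 90.7 CPM in IRI 6 h libraries (log2 fold change 1.08 ± 0.28 (SE), adjusted p = 0.013, or 0.067 in the 8-library fit). Hsd11b2, which inactivates glucocorticoid in principal cells, was lower in each UC-MSC library (log2 fold change -0.88 ± 0.13 (SE), adjusted p = 0.0011, or 0.03 in the 8-library fit). Kl, the FGF23 coreceptor Klotho, overlapped (log2 fold change -0.52 ± 0.39 (SE), adjusted p = 0.35). Of the proximal tubule S3 members, 0 were called higher and 3 lower in the trimmed fit, and 0 and 0 in the 8-library fit. Members of the distal convoluted and connecting tubule list called in the trimmed fit were 3 higher and 6 lower, and in the 8-library fit 0 and 0. With 1 library fewer it had 0 lower without UC-MSC library 2 and 1 lower without IRI 6 h library 2, 3 or 4. The principal cell list had 2 higher and 3 lower in the trimmed fit, against 0 and 1 in the 8-library fit. It had 3 lower without UC-MSC library 1. Missing the threshold in some fits that left out 1 library were Slc22a7 (without UC-MSC library 4 or IRI 6 h library 2, 3 or 4, adjusted p up to 0.73) and Cyp7b1 (without UC-MSC library 4 or IRI 6 h library 3, adjusted p up to 0.098).

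Injury markers were high in both groups relative to Control, and some were higher in UC-MSC. Of 24 tested injury and repair genes, 6 were called higher and 1 lower, beside 11.7% and 11.4% of all genes. The median was 0.26, and DESeq2 called 7 higher and 2 lower, beside 2340 and 2155 of all genes. Against Control the list had 22 called higher in UC-MSC and 23 in IRI 6 h, beside 26.7% and 20.7% of all genes. Krt20, a keratin of injured tubule cells, had 641, 1022, 1292 and 767 CPM in UC-MSC libraries, against 627, 129.9, 109 and 100.2 CPM in IRI 6 h libraries. Library 1 of IRI 6 h stood just under the lowest UC-MSC library, and the other 3 were several-fold lower (log2 fold change 1.95 ± 0.60 (SE), adjusted p = 0.029, or 0.078 in the 8-library fit). Plin2, which coats lipid droplets, had 766, 3545, 2728 and 6588 CPM in UC-MSC libraries, against 1498, 331, 279 and 276 CPM in IRI 6 h libraries (log2 fold change 2.51 ± 0.61 (SE), adjusted p = 0.0093, or 0.073 in the 8-library fit). Sox9, a transcription factor of tubule repair, had 31.8, 67.7, 64.7 and 78.9 CPM in UC-MSC libraries, against 42.2, 32.7, 26.1 and 25.8 CPM in IRI 6 h libraries (log2 fold change 0.94 ± 0.32 (SE), adjusted p = 0.046, or 0.07 in the 8-library fit). Vcam1, an adhesion molecule of failed tubule repair, was lower (log2 fold change -1.63 ± 0.43 (SE), adjusted p = 0.015, or 0.08 in the 8-library fit). Timp1, a metalloproteinase inhibitor, spread widely in both groups and did not pass (log2 fold change -0.07 ± 0.56 (SE), adjusted p = 0.94). Havcr1 and Lcn2, the usual injury markers, were not analysed here because their Control counts differed between the tables. The tubular injury and repair list had 13 higher and 1 lower in the trimmed fit, against 0 and 0 in the 8-library fit. Single omissions gave 3 higher without UC-MSC library 2 or 3, 10 higher without IRI 6 h library 1 and 2 higher without IRI 6 h library 2, 3 or 4. The fits that left out 1 library did not keep Krt20 (without UC-MSC library 2 or 3 or IRI 6 h library 2, 3 or 4, adjusted p up to 0.089), Sox9 (without UC-MSC library 2, 3 or 4 or IRI 6 h library 2, 3 or 4, adjusted p up to 0.12) and Vcam1 (without IRI 6 h library 2, adjusted p up to 0.055).

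Immediate early genes, the first transcripts made on stimulation, had 11 of 21 called higher and 0 lower, with a median of 0.93. Klf6, a zinc finger transcription factor, had 248, 333, 266 and 870.2 CPM in UC-MSC libraries, against 154, 103, 84.4 and 101.5 CPM in IRI 6 h libraries, with UC-MSC library 4 the highest and no overlap (log2 fold change 1.96 ± 0.37 (SE), adjusted p = 0.0032, or 0.038 in the 8-library fit). Fosb, an AP-1 subunit, had 16.4, 4.79, 15.99 and 6.34 CPM in UC-MSC libraries, against 4.72, 2.40, 2.08 and 2.12 CPM in IRI 6 h libraries (log2 fold change 1.95 ± 0.41 (SE), adjusted p = 0.0052, or 0.047 in the 8-library fit). Atf3, a stress-induced bZIP factor, had 51.7, 23.9, 73.3 and 89.2 CPM in UC-MSC libraries, against 28.5, 18.1, 12.9 and 14.8 CPM in IRI 6 h libraries (log2 fold change 1.68 ± 0.32 (SE), adjusted p = 0.0032, or 0.045 in the 8-library fit). Nr4a1, an orphan nuclear receptor, rose with IRI 6 h library 1 in the UC-MSC range (log2 fold change 1.74 ± 0.48 (SE), adjusted p = 0.019, or 0.093 in the 8-library fit). Fos (log2 fold change 0.94 ± 0.50 (SE), adjusted p = 0.18) and Myc (log2 fold change 0.69 ± 0.33 (SE), adjusted p = 0.14) did not pass. For immediate early genes, the trimmed fit called 17 higher and 0 lower and the 8-library fit 6 and 0. The counts became 18 higher without IRI 6 h library 1. The call that was lost when 1 library was left out was Nr4a1 (without UC-MSC library 3 or IRI 6 h library 2, 3 or 4, adjusted p up to 0.063).

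The heat shock list had 4 of 13 members called higher and 1 lower. Hspa1a, the inducible HSP70 chaperone, had 179.9, 73.3, 89.4 and 35.0 CPM in UC-MSC libraries, against 30.4, 17.1, 14.2 and 14.7 CPM in IRI 6 h libraries. Each UC-MSC library was above each IRI 6 h library, and UC-MSC library 1 was the highest (log2 fold change 2.31 ± 0.38 (SE), adjusted p = 0.0015, or 0.034 in the 8-library fit). IRI 6 h over Control was -0.07 ± 0.37 (SE), adjusted p = 0.9. Its neighbour Hspa1b, a near-identical copy between which reads may be split, had 256, 114, 108 and 60.1 CPM in UC-MSC libraries, against 82.6, 52.9, 41.4 and 47.2 CPM in IRI 6 h libraries (log2 fold change 1.27 ± 0.34 (SE), adjusted p = 0.015, or 0.086 in the 8-library fit). The HSP70 cochaperone Bag3 was higher as well (log2 fold change 0.73 ± 0.17 (SE), adjusted p = 0.0077, or 0.07 in the 8-library fit). Heat shock factor binds pairs of GAA units. Counted by gene, as for the cell cycle members, GAANNTTC stood in a RefSeq window of all 4 members called higher, against 7.86% of all single windows. Members not called higher were not counted, so this count does not set called members apart from the rest of the list. The window of Hspa1a is shown, as this gene had the largest rise of the list. It lies at chr17:34972107-34972406 on the minus strand of GRCm38.p6, written on the gene's strand with the match in capitals.
Hspa1a: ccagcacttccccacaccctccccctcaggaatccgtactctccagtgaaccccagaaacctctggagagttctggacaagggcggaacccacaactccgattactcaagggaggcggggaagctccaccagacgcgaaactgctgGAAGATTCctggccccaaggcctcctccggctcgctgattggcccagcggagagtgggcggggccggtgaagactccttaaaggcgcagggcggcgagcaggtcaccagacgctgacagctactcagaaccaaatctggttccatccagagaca
Of the heat shock and chaperones members, 6 were called higher and 2 lower in the trimmed fit, and 1 and 1 in the 8-library fit. Omitting 1 library gave 2 higher without IRI 6 h library 3. With 1 library left out, the threshold was missed by Hspa1b (without IRI 6 h library 3, adjusted p up to 0.052).

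Of 23 tested genes of the NRF2 and redox list, 5 were called higher and 0 lower, with a median of 0.22. Hmox1, haem oxygenase 1, had 462, 751, 746 and 643 CPM in UC-MSC libraries, against 566, 147, 116 and 111 CPM in IRI 6 h libraries. IRI 6 h libraries 2 to 4 lay several-fold below the UC-MSC libraries, and library 1 lay among them (log2 fold change 1.47 ± 0.44 (SE), adjusted p = 0.027, or 0.1 in the 8-library fit). Nfe2l2, which encodes NRF2, had 147, 237, 173 and 257 CPM in UC-MSC libraries, against 181, 127, 121 and 126 CPM in IRI 6 h libraries (log2 fold change 0.55 ± 0.17 (SE), adjusted p = 0.034, or 0.13 in the 8-library fit). Gclc, the catalytic subunit of glutathione synthesis, also rose (log2 fold change 0.80 ± 0.22 (SE), adjusted p = 0.017, or 0.079 in the 8-library fit), while the quinone reductase Nqo1 did not pass (log2 fold change 0.38 ± 0.25 (SE), adjusted p = 0.29). The superoxide dismutase genes Sod1, Sod2 and Sod3 were not analysed here. The unfolded protein and ATF4 list was split, with 5 of 21 lower and 3 higher: Phgdh, the first enzyme of serine synthesis, was lower (log2 fold change -1.002 ± 0.21 (SE), adjusted p = 0.0046, or 0.047 in the 8-library fit) and the mTOR inhibitor Ddit4 higher (log2 fold change 1.41 ± 0.31 (SE), adjusted p = 0.0061, or 0.047 in the 8-library fit). Acsl4, which loads polyunsaturated fatty acids into membrane lipids, was higher (log2 fold change 1.42 ± 0.31 (SE), adjusted p = 0.0054, or 0.044 in the 8-library fit) among 21 cell death genes, of which 4 were called higher and 2 lower. Members of the NRF2 targets and redox list called in the trimmed fit were 8 higher and 3 lower, and in the 8-library fit 0 and 0. When 1 library was dropped there were 9 higher without UC-MSC library 1 or IRI 6 h library 1, 1 higher without UC-MSC library 2 or IRI 6 h library 3 or 4, 3 higher without UC-MSC library 3 and 0 higher without IRI 6 h library 2. The unfolded protein and ATF4 response list had 9 higher and 5 lower in the trimmed fit, against 2 and 1 in the 8-library fit. Counts also moved to 8 higher without UC-MSC library 1 or IRI 6 h library 1 and 3 lower without UC-MSC library 2 or IRI 6 h library 2 or 4. For cell death executors, the trimmed fit called 7 higher and 3 lower and the 8-library fit 1 and 0. Leaving out 1 library moved its counts to 8 higher without IRI 6 h library 1 and 2 higher without IRI 6 h library 2, 3 or 4. Leaving out 1 library ended the call of Hmox1 (without UC-MSC library 2 or 3 or IRI 6 h library 2, 3 or 4, adjusted p up to 0.087), Nfe2l2 (without UC-MSC library 2 or 4 or IRI 6 h library 2, 3 or 4, adjusted p up to 0.1) and Gclc (without UC-MSC library 2 or IRI 6 h library 2, adjusted p up to 0.061).

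Some fuel genes rose. Of 25 tested fatty acid oxidation genes, 8 were called higher and 0 lower, with a median of 0.50. Pdk4, the kinase that shuts off pyruvate entry to the mitochondrion, had 219, 1347, 915 and 3534 CPM in UC-MSC libraries, against 335, 47.5, 39.4 and 48.3 CPM in IRI 6 h libraries. UC-MSC library 1 was the lowest of its group and IRI 6 h library 1 lay above it (log2 fold change 3.68 ± 0.77 (SE), adjusted p = 0.0049, or 0.056 in the 8-library fit). The peroxisomal bifunctional enzyme Ehhadh had 393, 3589, 1988 and 3575 CPM in UC-MSC libraries, against 871, 304, 306 and 298 CPM in IRI 6 h libraries (log2 fold change 2.42 ± 0.52 (SE), adjusted p = 0.0053, or 0.058 in the 8-library fit). The peroxisomal thiolase Acaa1b was likewise high in UC-MSC libraries 2 to 4 and lowest in UC-MSC library 1 (log2 fold change 1.46 ± 0.38 (SE), adjusted p = 0.014, or 0.092 in the 8-library fit). Of the fatty acid oxidation members, 7 were called higher and 1 lower in the trimmed fit, and 1 and 0 in the 8-library fit. With 1 library fewer it had 14 higher without UC-MSC library 1, 5 higher without UC-MSC library 4 or IRI 6 h library 4 and 4 higher without IRI 6 h library 2 or 3.

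Hypoxia and glycolysis genes had 9 of 21 called higher and 0 lower, with a median of 0.71. Hif1a, the oxygen-regulated subunit of hypoxia-inducible factor, had 198, 255, 166 and 246 CPM in UC-MSC libraries, against 102, 85.3, 82.8 and 102 CPM in IRI 6 h libraries. The groups did not overlap (log2 fold change 1.22 ± 0.18 (SE), adjusted p = 0.00096, or 0.022 in the 8-library fit), and IRI 6 h over Control was -0.06 ± 0.18 (SE), adjusted p = 0.79. Egln3, an oxygen sensor and target of that factor, had 95.3, 67.6, 70.4 and 33.6 CPM in UC-MSC libraries, against 41.9, 18.1, 19.6 and 20.1 CPM in IRI 6 h libraries (log2 fold change 1.43 ± 0.31 (SE), adjusted p = 0.0059, or 0.05 in the 8-library fit). Members of the hypoxia and glycolysis list called in the trimmed fit were 14 higher and 0 lower, and in the 8-library fit 4 and 0. Single omissions gave 14 higher without IRI 6 h library 1.

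**Figure D3:**
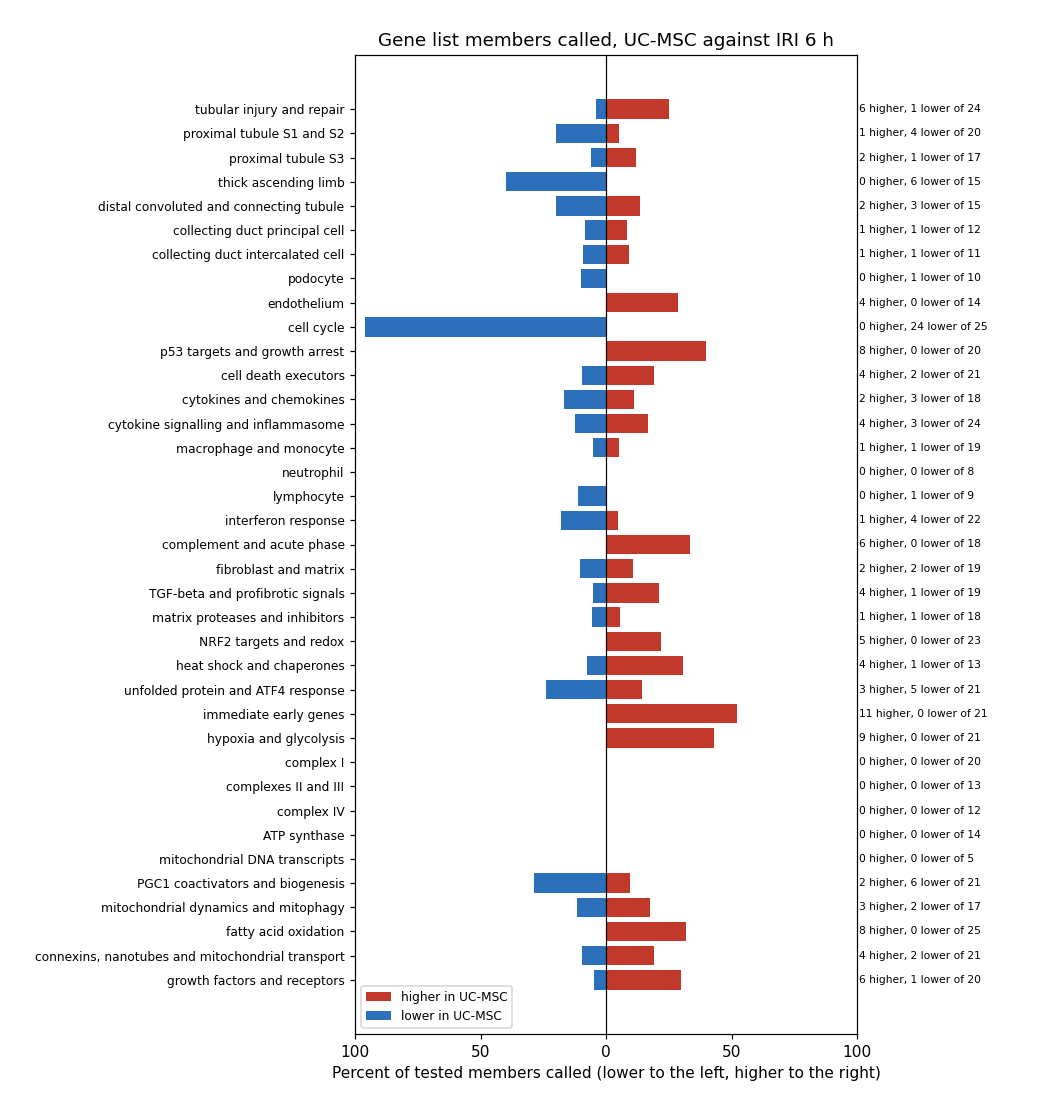
Percent of tested members of each of 37 gene lists called in UC-MSC against IRI 6 h, higher to the right and lower to the left, with the counts at the right edge. The cell cycle bar, 24 of 25 lower, is the longest, and the respiratory chain lists have no bar; over all genes 11.7% were called higher and 11.4% lower.

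Of 18 tested cytokines and chemokines, 2 were called higher and 3 lower, beside 11.7% and 11.4% of all genes; Il6, Il1b, Il1a and Ccl2 were among 7 not analysed here. Cxcl1, a neutrophil chemoattractant, had 45.8, 43.7, 68.2 and 40.9 CPM in UC-MSC libraries, against 5.71, 2.45, 3.65 and 3.77 CPM in IRI 6 h libraries. Every UC-MSC library was above every IRI 6 h library, with means of 49.6 ± 12.5 CPM in UC-MSC and 3.89 ± 1.35 CPM in IRI 6 h (SD, n = 4 each), and Control averaged 1.34 ± 0.634 CPM (log2 fold change 3.68 ± 0.42 (SE), adjusted p = 0.00038, or 0.0035 in the 8-library fit). In AKI libraries Cxcl1 had 98.9, 31.0, 42.5 and 28.4 CPM, and AKI over IRI 6 h was 3.72 ± 0.48 (SE), adjusted p = 1.7e-05. Cxcl10, a T cell chemoattractant induced by interferon, had 12.96, 7.48, 10.6 and 7.33 CPM in UC-MSC libraries, against 4.49, 1.96, 2.16 and 4.30 CPM in IRI 6 h libraries (log2 fold change 1.58 ± 0.28 (SE), adjusted p = 0.0023, or 0.039 in the 8-library fit). Ccl20, which attracts cells bearing CCR6, had 2.48, 0.270, 0.388 and 0.396 CPM in UC-MSC libraries, against 1.37, 5.18, 7.51 and 5.36 CPM in IRI 6 h libraries (log2 fold change -2.38 ± 0.62 (SE), adjusted p = 0.014, or 0.079 in the 8-library fit). The transmembrane chemokine Cxcl16 was lower in each UC-MSC library (log2 fold change -1.06 ± 0.15 (SE), adjusted p = 0.00071, or 0.03 in the 8-library fit). Cxcl2 (log2 fold change 1.11 ± 0.94 (SE), adjusted p = 0.41) and Tnf (log2 fold change 0.14 ± 0.59 (SE), adjusted p = 0.89) spread over the ranges of both groups. The cytokines and chemokines list had 6 higher and 3 lower in the trimmed fit, against 2 and 1 in the 8-library fit. The counts became 5 higher without IRI 6 h library 1.

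Of 24 tested genes of cytokine signalling and the inflammasome, 4 were called higher and 3 lower. The interleukin-6 receptor subunit Il6ra was higher without overlap (log2 fold change 1.19 ± 0.31 (SE), adjusted p = 0.013, or 0.05 in the 8-library fit), and its downstream factor Stat3 was higher with overlap (log2 fold change 0.80 ± 0.20 (SE), adjusted p = 0.012, or 0.084 in the 8-library fit). Bcl3, a nuclear IkB protein, was lower without overlap (log2 fold change -0.91 ± 0.18 (SE), adjusted p = 0.0032, or 0.033 in the 8-library fit), and so was Pycard, the adaptor ASC of inflammasomes (log2 fold change -0.89 ± 0.20 (SE), adjusted p = 0.0073, or 0.052 in the 8-library fit). The sensor Nlrp3 did not pass (log2 fold change 0.58 ± 0.59 (SE), adjusted p = 0.5). Interferon response genes had 4 of 22 called lower and 1 higher, beside 11.4% and 11.7% of all genes. Oasl2, an interferon-induced antiviral protein, was lower (log2 fold change -1.09 ± 0.33 (SE), adjusted p = 0.028, or 0.097 in the 8-library fit). In the complement and acute phase list 6 of 18 were called higher and 0 lower, among them serum amyloid Saa3 (log2 fold change 2.18 ± 0.75 (SE), adjusted p = 0.045, or 0.13 in the 8-library fit) and orosomucoid Orm1 (log2 fold change 1.35 ± 0.37 (SE), adjusted p = 0.018, or 0.039 in the 8-library fit). For cytokine signalling and inflammasome, the trimmed fit called 12 higher and 3 lower and the 8-library fit 1 and 1. Omitting 1 library gave 9 higher without IRI 6 h library 1. Of the interferon response members, 3 were called higher and 4 lower in the trimmed fit, and 1 and 1 in the 8-library fit. When 1 library was dropped there were 10 lower without UC-MSC library 1, 2 lower without UC-MSC library 2 or 4 or IRI 6 h library 2 or 4 and 8 lower without IRI 6 h library 1. Members of the complement and acute phase list called in the trimmed fit were 9 higher and 1 lower, and in the 8-library fit 1 and 0. Counts also moved to 1 higher without UC-MSC library 3 or IRI 6 h library 2 or 3 and 2 higher without IRI 6 h library 4. Missing the threshold in some fits that left out 1 library were Oasl2 (without UC-MSC library 2 or 4 or IRI 6 h library 2 or 4, adjusted p up to 0.08), Saa3 (without UC-MSC library 2 or 3 or IRI 6 h library 2, 3 or 4, adjusted p up to 0.21) and Orm1 (without UC-MSC library 3 or IRI 6 h library 2 or 3, adjusted p up to 0.063).

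Neutrophils are among the first leukocytes to enter injured tissue. Of 8 tested neutrophil markers, 0 were called by edgeR or DESeq2, and 1 had an unadjusted p under 0.05. S100a8, a calprotectin subunit, had 150.1, 105, 124 and 15.3 CPM in UC-MSC libraries, against 137, 16.6, 19.9 and 14.5 CPM in IRI 6 h libraries. UC-MSC libraries 1 to 3 and IRI 6 h library 1 were high, while UC-MSC library 4 and IRI 6 h libraries 2 to 4 were low (log2 fold change 1.08 ± 0.96 (SE), adjusted p = 0.44). The summed neutrophil list had 630.2, 403, 475 and 60.9 CPM in UC-MSC, against 525, 72.0, 71.4 and 64.5 CPM in IRI 6 h. Summed macrophage and monocyte markers had 833, 568, 989 and 416 CPM in UC-MSC, against 694, 562, 731 and 577 CPM in IRI 6 h, with overlap. Of the 19 tested, the scavenger receptor Cd163 was called higher (log2 fold change 1.68 ± 0.37 (SE), adjusted p = 0.0062, or 0.046 in the 8-library fit) and the fractalkine receptor Cx3cr1 lower (log2 fold change -2.14 ± 0.62 (SE), adjusted p = 0.023, or 0.12 in the 8-library fit). The neutrophil list had 5 higher and 0 lower in the trimmed fit, against 0 and 0 in the 8-library fit. Leaving out 1 library moved its counts to 3 higher without IRI 6 h library 1. For macrophage and monocyte, the trimmed fit called 7 higher and 2 lower and the 8-library fit 1 and 0. With 1 library fewer it had 3 higher without UC-MSC library 4 or IRI 6 h library 1. The fits that left out 1 library did not keep Cx3cr1 (without UC-MSC library 2 or 3 or IRI 6 h library 2, 3 or 4, adjusted p up to 0.068).

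Of 19 fibroblast and matrix genes, 2 were called higher and 2 lower, shares near those of all genes. Collagen Col1a1 had 419, 144, 289 and 105 CPM in UC-MSC libraries, against 435, 648, 631 and 518 CPM in IRI 6 h libraries (log2 fold change -1.22 ± 0.34 (SE), adjusted p = 0.019, or 0.088 in the 8-library fit), and Col1a2 was lower too (log2 fold change -0.84 ± 0.26 (SE), adjusted p = 0.028, or 0.11 in the 8-library fit). Dcn, the small proteoglycan decorin, had 276, 153, 298 and 125 CPM in UC-MSC libraries, against 91.5, 93.2, 93.5 and 105 CPM in IRI 6 h libraries (log2 fold change 1.16 ± 0.24 (SE), adjusted p = 0.0045, or 0.047 in the 8-library fit). Both collagens were above Control in each group, while Dcn in IRI 6 h over Control was 0.04 ± 0.23 (SE), adjusted p = 0.91. Of 19 profibrotic signalling genes 4 were called higher, such as the TGF-beta pathway repressor Skil (log2 fold change 0.90 ± 0.19 (SE), adjusted p = 0.0048, or 0.031 in the 8-library fit), and 1, the platelet-derived growth factor Pdgfb, lower (log2 fold change -0.78 ± 0.17 (SE), adjusted p = 0.006, or 0.04 in the 8-library fit). Of 14 endothelial genes, 4 were called higher and 0 lower, with a median of 0.50, among them the secreted proteoglycan Esm1 (log2 fold change 1.27 ± 0.20 (SE), adjusted p = 0.0013, or 0.03 in the 8-library fit) and the sialomucin Emcn (log2 fold change 0.58 ± 0.15 (SE), adjusted p = 0.016, or 0.084 in the 8-library fit). The growth factor list had 6 of 20 higher and 1 lower, with Erbb3, a neuregulin receptor, higher in each UC-MSC library (log2 fold change 1.00 ± 0.19 (SE), adjusted p = 0.003, or 0.036 in the 8-library fit). Of the fibroblast and matrix members, 4 were called higher and 2 lower in the trimmed fit, and 1 and 0 in the 8-library fit. Single omissions gave 6 lower without UC-MSC library 1. Members of the TGF-beta and profibrotic signals list called in the trimmed fit were 8 higher and 1 lower, and in the 8-library fit 1 and 1. The counts became 8 higher without IRI 6 h library 1 and 1 higher without IRI 6 h library 2, 3 or 4. The endothelium list had 9 higher and 0 lower in the trimmed fit, against 1 and 0 in the 8-library fit. Omitting 1 library gave 2 higher without UC-MSC library 2 or 3, 9 higher without IRI 6 h library 1 and 1 higher without IRI 6 h library 2, 3 or 4. For growth factors and receptors, the trimmed fit called 10 higher and 3 lower and the 8-library fit 1 and 1. When 1 library was dropped there were 3 higher without UC-MSC library 2 or IRI 6 h library 2, 3 or 4. Calls that were lost when 1 library was left out were Col1a1 (without UC-MSC library 2 or IRI 6 h library 2 or 3, adjusted p up to 0.063), Col1a2 (without UC-MSC library 2 or IRI 6 h library 2 or 3, adjusted p up to 0.087) and Emcn (without IRI 6 h library 2, 3 or 4, adjusted p up to 0.058).

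Genes of connexin channels, nanotubes and mitochondrial transport are those the series title points to. Of 24 listed, 21 were tested, and 4 were called higher and 2 lower, beside 11.7% and 11.4% of all genes. The median was 0.25. DESeq2 on 16 libraries called 7 higher and 3 lower, beside 2340 and 2155 of all genes, more each way than edgeR called. Gja1, which encodes connexin 43, was not analysed here because its Control counts differed between the tables. Gjb2, connexin 26, had 59.2, 162, 112 and 205 CPM in UC-MSC libraries, against 47.9, 59.6, 65.9 and 70.1 CPM in IRI 6 h libraries (log2 fold change 1.14 ± 0.29 (SE), adjusted p = 0.012, or 0.069 in the 8-library fit). Kif5b, the kinesin that carries mitochondria, was higher without overlap (log2 fold change 0.60 ± 0.18 (SE), adjusted p = 0.025, or 0.088 in the 8-library fit), and the junction scaffold Tjp1 higher with overlap (log2 fold change 0.58 ± 0.19 (SE), adjusted p = 0.042, or 0.1 in the 8-library fit). Lst1, a leukocyte protein that promotes nanotubes, had 1.21, 0.135, 0.712 and 0.0990 CPM in UC-MSC libraries, against 1.52, 2.24, 4.69 and 2.12 CPM in IRI 6 h libraries (log2 fold change -2.18 ± 0.64 (SE), adjusted p = 0.024, or 0.074 in the 8-library fit). Rhot1, the mitochondrial GTPase Miro1, which links mitochondria to kinesin and is used in donor cells to raise transfer, had 57.3, 81.9, 62.6 and 89.7 CPM in UC-MSC libraries, against 58.5, 58.7, 63.3 and 63.7 CPM in IRI 6 h libraries (log2 fold change 0.25 ± 0.13 (SE), adjusted p = 0.17). The counts are of mouse genes, and transcripts of the human cells were not counted separately here. Of the connexins, nanotubes and mitochondrial transport members, 7 were called higher and 3 lower in the trimmed fit, and 0 and 0 in the 8-library fit. Counts also moved to 1 higher without UC-MSC library 2 or IRI 6 h library 2 or 3, 8 higher without IRI 6 h library 1 and 4 lower without UC-MSC library 1. With 1 library left out, the threshold was missed by Kif5b (without UC-MSC library 2 or IRI 6 h library 2 or 3, adjusted p up to 0.075), Tjp1 (without UC-MSC library 1 or 2 or IRI 6 h library 2, 3 or 4, adjusted p up to 0.14) and Lst1 (without UC-MSC library 2 or IRI 6 h library 3, adjusted p up to 0.087).

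The 9 largest rises were genes of the adrenal gland, followed by Cxcl1. They were the steroid enzymes Cyp11a1, Cyp11b1, Cyp21a1 and Hsd3b1, the cholesterol carrier Star, the aldose reductase Akr1b7, and the secretory granule proteins Chga, Chgb and Scg2 of chromaffin cells. Cyp11a1, the first step of steroid synthesis, had 4.85, 85.2, 350.0 and 15.4 CPM in UC-MSC libraries, against 0.380, 0, 0.223 and 0.118 CPM in IRI 6 h libraries. UC-MSC libraries 2 and 3 held most of it (log2 fold change 9.38 ± 1.83 (SE), adjusted p = 0.0035, or 0.03 in the 8-library fit; at such counts a fitted fold depends on the prior count and is no bound). Hsd3b1 belongs to a family of similar copies between which reads may be split. Akr1b7 had 19.2, 731, 1144 and 67.3 CPM in UC-MSC libraries, against 6.09, 5.18, 2.83 and 5.77 CPM in IRI 6 h libraries (log2 fold change 6.62 ± 1.07 (SE), adjusted p = 0.0014, or 0.031 in the 8-library fit). Star had 20.8, 345, 1078 and 47.9 CPM in UC-MSC libraries, against 7.08, 4.09, 3.65 and 3.71 CPM in IRI 6 h libraries (log2 fold change 6.34 ± 1.21 (SE), adjusted p = 0.0031, or 0.031 in the 8-library fit). Scg2 had 0.993, 80.3, 107 and 3.56 CPM in UC-MSC libraries, against 0.0761, 0, 0 and 0.0589 CPM in IRI 6 h libraries. Chga had 0.772, 60.7, 94.6 and 3.86 CPM in UC-MSC libraries, against 0, 0, 0.223 and 0.0589 CPM in IRI 6 h libraries. In Chga, Chgb and Scg2 alike, UC-MSC libraries 2 and 3 were the highest of the 8. Chgb had 1.38, 94.8, 137 and 6.24 CPM in UC-MSC libraries, against 0.457, 0.218, 0 and 0 CPM in IRI 6 h libraries. Across a list of 10 genes of adrenal steroid synthesis, chosen after the values were seen, the summed level was 85.2, 1598, 3981 and 204 CPM in UC-MSC, against 31.0, 14.3, 12.3 and 14.9 CPM in IRI 6 h. In Control libraries it was 289.6, 26.9, 14.7 and 255 CPM, so Control kidneys also differed among themselves. Of 9 chromaffin cell markers, also chosen after the values were seen, 7 were called higher and 0 lower, beside 11.7% of all genes. The trimmed fit called 7 and 0, the 8-library fit 4 and 0. Th and Pnmt had 0 counts in all IRI 6 h libraries. The summed list had 76.0, 503, 643 and 186 CPM in UC-MSC, against 120, 86.7, 96.6 and 89.9 CPM in IRI 6 h. UC-MSC library 1 thus lay below every IRI 6 h library. Control libraries had 307 to 331 CPM.

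Markers of fat and blood were read as sums too. Summed adipocyte markers had 1806, 1354, 2617 and 926 CPM in UC-MSC, against 906, 540.5, 544 and 590.0 CPM in IRI 6 h. Of these markers, 6 of 8 were called higher, beside 11.7% of all genes. Summed red blood cell markers had 1178, 950.3, 981 and 3581 CPM in UC-MSC, against 781, 520.3, 687 and 457 CPM in IRI 6 h. Here 4 of 5 were called higher, beside the same 11.7% of all genes. Both lists were chosen after the values were seen. The part of adrenal, fat, blood and neutrophil RNA in the other gene differences was not tested. Members of the adipocyte list called in the trimmed fit were 8 higher and 0 lower, and in the 8-library fit 1 and 0. Leaving out 1 library moved its counts to 3 higher without IRI 6 h library 2. The red blood cell list had 2 higher and 0 lower in the trimmed fit, against 0 and 0 in the 8-library fit. With 1 library fewer it had 1 higher without UC-MSC library 4 or IRI 6 h library 2 or 4 and 2 higher without IRI 6 h library 3.

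**Figure D4:**
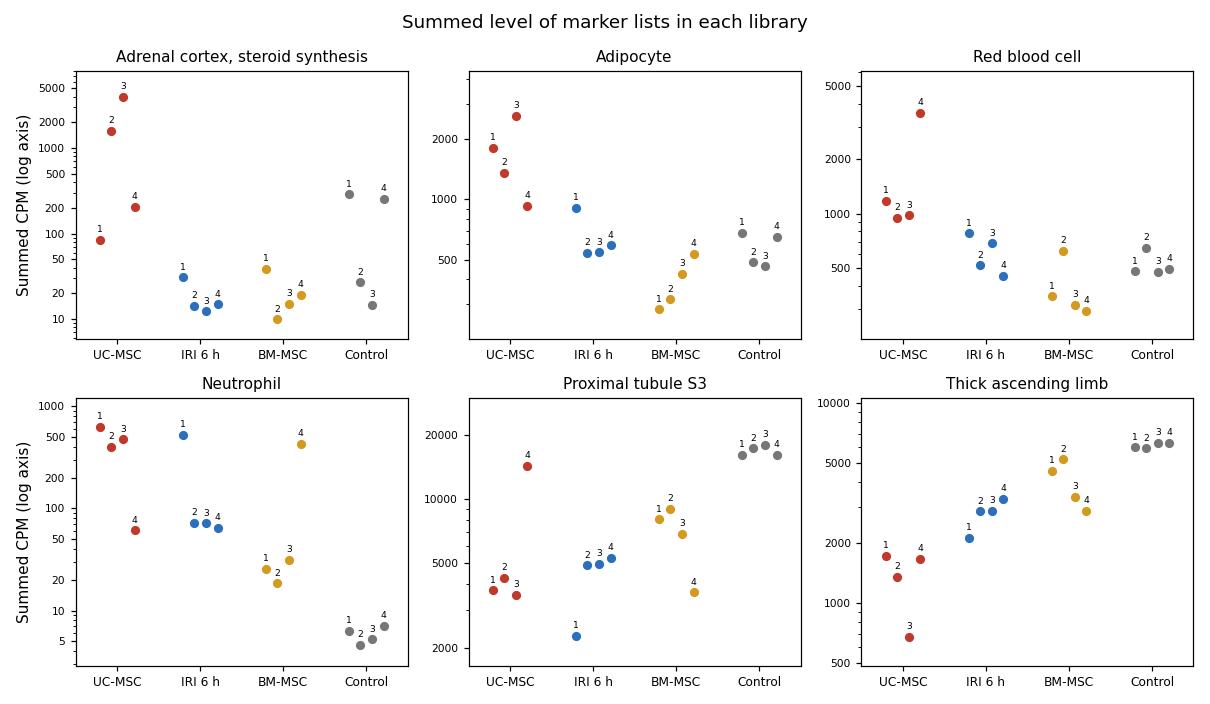
Summed CPM, on a log axis, of 6 marker lists in each library of UC-MSC, IRI 6 h, BM-MSC and Control; numbers are replicates. Adrenal genes are high in UC-MSC libraries 2 and 3, S3 genes in UC-MSC library 4 among the injured groups but below every Control library, and neutrophil genes in UC-MSC libraries 1 to 3, IRI 6 h library 1 and BM-MSC library 4.

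UC-MSC also differed from BM-MSC kidneys, the other cell-treated group, at 5691 of 16490 genes (34.5%), 2853 (17.3%) higher and 2838 (17.2%) lower in UC-MSC. This comparison shares the UC-MSC libraries with the one above. Among called genes with separate ranges the largest rises were Akr1b7, Cyp21a1, Cyp11b1 and Cyp11a1, all adrenal. The largest falls were Fkbp1a, Umod, Shcbp1, a protein of proliferating cells, and Cx3cr1. Ppargc1a in BM-MSC libraries had 72.6, 71.1, 50.1 and 46.1 CPM, above each UC-MSC value given above, and UC-MSC over BM-MSC was -1.14 ± 0.18 (SE), adjusted p = 0.0011. Krt20 in BM-MSC libraries had 57.6, 24.9, 35.9 and 108 CPM, and UC-MSC over BM-MSC was 4.03 ± 0.65 (SE), adjusted p = 0.0012. BM-MSC library 4 was the highest of its group, and the UC-MSC libraries were all above it. Of 25 cell cycle members, 24 were called lower than in BM-MSC and 0 higher, with a median of -1.82. Immediate early genes had 19 of 21 called higher than in BM-MSC and 0 lower, with a median of 1.98.

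AKI and IRI 6 h kidneys, both injured, labelled 6 h and with no cells named in their labels, differed at 34.5% of genes, with 2832 (16.8%) higher and 2968 (17.6%) lower in AKI. AKI values stand in the therapy table beside UC-MSC. The largest rises with separate ranges were Cyp11a1, Cxcl1, the steroid 5-alpha-reductase Srd5a2 and the lipid droplet protein Cidea. AKI library 1 stood apart for some genes. Cyp11a1 had 62.7, 0.705, 4.21 and 0.834 CPM in AKI and Srd5a2 had 57.2, 5.45, 8.30 and 6.14 CPM, and without AKI library 1 neither passed against IRI 6 h (3.503, adjusted p = 0.19, and 1.23, adjusted p = 0.15). Hspa1a had 823, 12.8, 25.8 and 20.6 CPM in AKI, and AKI over IRI 6 h was 3.56 ± 0.97 (SE), adjusted p = 0.0082, or 0.07 (adjusted p = 0.9) without that library. Klf6 had 875, 90.9, 96.3 and 82.9 CPM in AKI, with 1.398 ± 0.61 (SE), adjusted p = 0.084, or -0.28 (adjusted p = 0.57) without it. Among the largest falls were the steroid dehydrogenase Hsd3b4, the neutrophil gene Retnlg and the calcification inhibitor Mgp. Fkbp1a had 41.0, 54.7, 56.0 and 51.6 CPM in AKI, and AKI over IRI 6 h was -2.75 ± 0.30 (SE), adjusted p = 3.1e-06. Umod had 561, 126, 222 and 180.5 CPM in AKI (-2.61 ± 0.76 (SE), adjusted p = 0.012), and Plk1 1.06, 4.43, 3.77 and 3.22 CPM (-4.12 ± 0.61 (SE), adjusted p = 6.0e-05). Hmox1 had 893, 559, 1057 and 457 CPM in AKI (1.68 ± 0.44 (SE), adjusted p = 0.0065). The AKI and UC-MSC comparisons share the IRI 6 h libraries. Krt20 had 149, 190.0, 169 and 79.3 CPM in AKI and did not pass against IRI 6 h (-0.69 ± 0.55 (SE), adjusted p = 0.35), nor did Pdk4, with 537, 123, 56.1 and 146 CPM (0.90 ± 0.75 (SE), adjusted p = 0.37) or Hif1a (0.39 ± 0.28 (SE), adjusted p = 0.3). S100a8 had 6.32, 3.40, 2.55 and 0.715 CPM in AKI and was lower than in IRI 6 h (-3.84 ± 1.07 (SE), adjusted p = 0.0093).

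**Figure D5:**
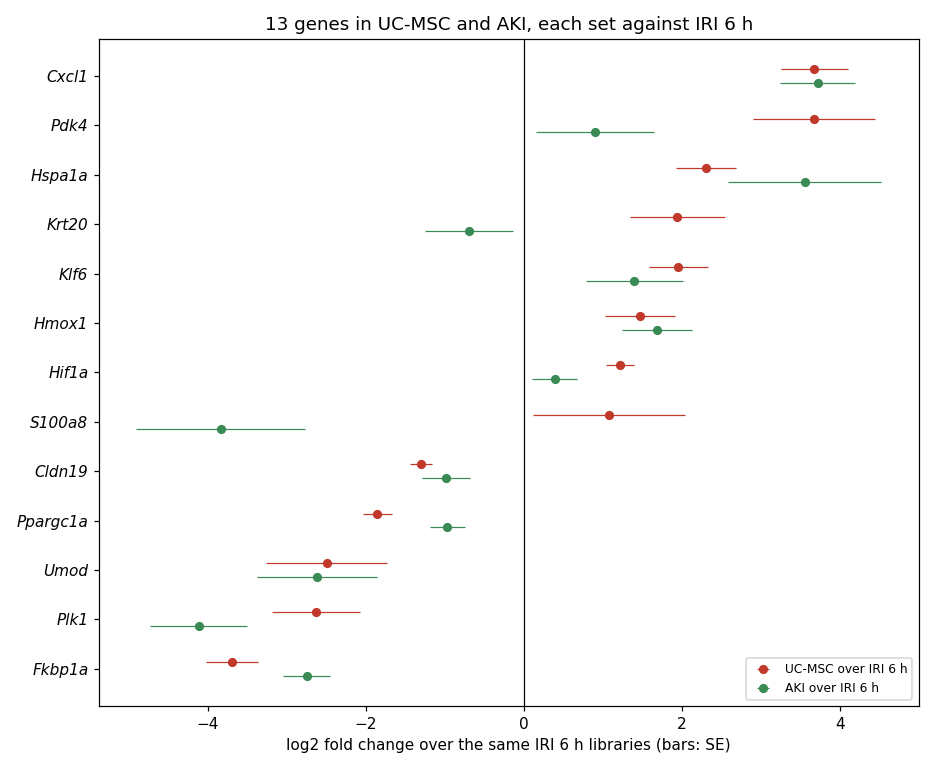
Log2 fold change of 13 genes in UC-MSC (red) and in AKI (green), each over the same 4 IRI 6 h libraries; bars are SE. Krt20 stands at 1.95 in UC-MSC and -0.69 in AKI, and both sets of points share their IRI 6 h libraries. The AKI points of Hspa1a and Klf6 fall to 0.07 and -0.28 without AKI library 1.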

How the data were processed

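The authors deposited raw counts per gene in a therapy table (UC-MSC, BM-MSC, AKI, Control) and a temporal table (IRI 6 h, the same Control libraries). HTSeq, DESeq2, mm39 and, for the therapy groups, GRCm39 are named per the submitters' processing notes; aligner and strand use are not given in the sources used here. Total RNA was extracted with a Qiagen kit and Illumina libraries were made, per the labels' protocols.

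Names repeated on several lines were collapsed. Of 55861 names in both tables, 75 with differing Control counts (0.134%) were left out. With 10 more, among them names in 1 table only, 85 names were left out and 55782 kept. Genes were tested with edgeR 4.0.16 in R 4.3.3 (filterByExpr, TMM scaling, quasi-likelihood test, two-sided, Benjamini-Hochberg adjusted p under 0.05) over 16 libraries, and over 20 with AKI. The test was also run on simulated data with a common spread for all groups and no libraries that stood apart. CPM values are TMM-scaled, n = 4 per group, and CPM compares a gene between samples, not genes with each other. Totals were 12949029 to 18475869 counts per library.

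Named genes were the 10 largest rises and 10 largest falls among named, called genes whose ranges were separate and whose log2 CPM averaged 3 or more, up to 4 called and 2 other members of each list, a set of sentinel genes, and the 4 largest each way in the side comparisons; a few of these genes are not reported here. Members and lists were chosen with earlier results of these data known. Lists had no set test. Alternatives were DESeq2 1.42.0, its size factors, no filter, 2 or 3 groups, a replicate block and leaving out libraries. Intervals from counting were not used.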

Additional observations from a re-analysis of the deposited data

Results flagged for a closer look

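In 48 of 210 groups of 4 values, 1 library stood so far from the other 3 that its gap passed Dixon's 95% critical value for 4 samples. For independent, normally distributed values about 1 group in 20 would be flagged. The genes share their libraries and many were named for their differences, so the 48 flags cannot be weighed against that rate. Of the 48 flags, 9 fell on UC-MSC library 1, 4 on UC-MSC library 4, 34 on IRI 6 h library 1 and 1 on IRI 6 h library 4. Values of UC-MSC library 1 above the other 3 of its group were Asf1b at 9.10 CPM, Aurkb at 15.9 CPM, Ccl20 at 2.48 CPM, Ccna2 at 37.0 CPM, Cdc20 at 49.3 CPM, Cdca5 at 8.77 CPM, Cdca8 at 19.3 CPM, Plk1 at 23.3 CPM and Tk1 at 39.4 CPM. Values of UC-MSC library 4 above the other 3 of its group were Cdkn1a at 1221 CPM, Cyp7b1 at 209.7 CPM, Klf6 at 870.2 CPM and Slc22a7 at 451 CPM. Values of IRI 6 h library 1 above the other 3 of its group were Bag3 at 84.5 CPM, Btg2 at 125 CPM, Cd163 at 12.1 CPM, Cdkn1a at 388 CPM, Cxcl2 at 138 CPM, Cyp11b1 at 0.913 CPM, Ddit4 at 155 CPM, Egln3 at 41.9 CPM and Ehhadh at 871 CPM. Further values of IRI 6 h library 1 above the other 3 of its group were Emcn at 79.5 CPM, Fkbp1a at 501 CPM, Fosb at 4.72 CPM, Gadd45b at 23.0 CPM, Hmox1 at 566 CPM, Krt20 at 627 CPM, Nfe2l2 at 181 CPM, Nr4a1 at 48.5 CPM and Pdk4 at 335 CPM. Others of IRI 6 h library 1 above the other 3 of its group were Plin2 at 1498 CPM, S100a8 at 137 CPM, Saa3 at 85.2 CPM, Slc22a7 at 32.3 CPM, Slc6a19 at 274 CPM, Star at 7.08 CPM, Stat3 at 289 CPM and Timp1 at 214 CPM. Values of IRI 6 h library 1 below the other 3 of its group were Ccna2 at 22.7 CPM, Cdc20 at 28.1 CPM, Cx3cr1 at 1.37 CPM, Esm1 at 13.7 CPM, Mtfp1 at 10.6 CPM, Plk1 at 19.4 CPM, Slc7a7 at 54.7 CPM and Tfb1m at 4.72 CPM. Values of IRI 6 h library 4 above the other 3 of its group were Dcn at 105 CPM.

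The comparisons of UC-MSC and BM-MSC with the shared IRI 6 h libraries differed at 5691 genes by the test of UC-MSC over BM-MSC. Log2 fold changes of UC-MSC over BM-MSC were 6.99 for Akr1b7, 6.92 for Cyp21a1, 6.77 for Cyp11b1 and 6.69 for Cyp11a1. They were -3.04 for Fkbp1a, -2.92 for Umod, -2.57 for Shcbp1 and -2.54 for Cx3cr1.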

How the results depend on the processing

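The direction of each of the 91 called genes named above was kept under all alternatives, and 68 of them stayed called in all 8 fits that left out 1 UC-MSC or IRI 6 h library. DESeq2 called 89 of the 91 and the 8-library fit 47. In the 8-library fit 901 genes were called, 449 higher, 452 lower and 416 with at least a 2-fold difference. Leaving out 1 library gave 2098 to 5332 called genes, 1002 to 2827 higher, 1096 to 2505 lower and 793 to 2146 with at least a 2-fold difference. Without IRI 6 h library 1 and UC-MSC library 4, 5888 were called, 2931 higher, 2957 lower and 2197 with at least a 2-fold difference. Without IRI 6 h library 1 and UC-MSC library 1 the counts were 6322, 3258, 3064 and 2728. DESeq2 called 4495 genes, scaling by DESeq2 size factors 3800, no filter on low counts 3062 and a fit of 3 groups 3357.

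UC-MSC over BM-MSC gave 3399 genes and AKI over IRI 6 h 3375 when only their 2 groups were fitted. With the replicate number as a block in fits of 2 groups, 2 genes (Chga and Cxcl1) were called for UC-MSC over IRI 6 h by edgeR, 2 higher, 0 lower and 2 with at least a 2-fold difference, with 3523 at an unadjusted p under 0.05. The block gave 1151 for UC-MSC over BM-MSC and 2572 for AKI over IRI 6 h. Same-numbered UC-MSC and IRI 6 h libraries correlated at -0.27, -0.087, -0.28 and 0.085 in their deviations from the group means. These values cannot settle whether the numbers pair the samples, because libraries that stood apart from their groups weigh on them.

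Reversals fell on genes that were not called. Tfam was -0.050 without IRI 6 h library 1 and UC-MSC library 4, and 0.08 to 0.33 with 1 library left out, on the log2 scale. Timp1 was 0.84 without that pair, 0.36 without IRI 6 h library 1 and UC-MSC library 1, and -0.58 to 0.52 with 1 library left out. Tnf was -0.18 with the replicate block, 0.68 without IRI 6 h library 1 and UC-MSC library 4, and -0.39 to 0.46 with 1 library left out. The causes were not tested. On simulated counts of 16434 genes for UC-MSC over IRI 6 h, the test called 59% of genes changed 2-fold and 94% of those changed 4-fold, with 9 false calls.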

Other observations

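The gene lists in this section were chosen after the values were seen, so their counts are descriptions. Targets of PPAR nuclear receptors, which induce lipid use and storage, had 11 of 15 called higher and 0 lower, with a median log2 fold change of 1.46. For PPAR targets, the trimmed fit called 12 higher and 0 lower and the 8-library fit 1 and 0. Single omissions gave 6 higher without UC-MSC library 4 or IRI 6 h library 4 and 5 higher without IRI 6 h library 2 or 3. Circadian clock genes, which cycle over the day, had 9 of 17 called higher and 0 lower, with a median log2 fold change of 0.73. Of the circadian clock members, 10 were called higher and 2 lower in the trimmed fit, and 5 and 0 in the 8-library fit. The counts became 5 higher without IRI 6 h library 3. The labels give no hour of collection. Genes induced by glucocorticoids had 5 of 9 called higher and 0 lower, with a median log2 fold change of 1.31. Members of the glucocorticoid-induced list called in the trimmed fit were 8 higher and 0 lower, and in the 8-library fit 2 and 0. Omitting 1 library gave 3 higher without UC-MSC library 2 or 4 or IRI 6 h library 2, 3 or 4 and 9 higher without IRI 6 h library 1. The summed level of the adrenal steroid genes differed between the same libraries, and its part in these counts was not tested. The RNA-binding proteins Cirbp and Rbm3, which rise when cells cool, were both called higher: Cirbp had 74.9, 124, 123 and 164 CPM in UC-MSC libraries, against 43.9, 18.6, 21.1 and 17.7 CPM in IRI 6 h libraries (log2 fold change 2.26 ± 0.28 (SE), adjusted p = 0.00044, or 0.023 in the 8-library fit), and Rbm3 had 253, 405, 394 and 277 CPM in UC-MSC libraries, against 331, 99.3, 94.997 and 98.6 CPM in IRI 6 h libraries (log2 fold change 1.09 ± 0.34 (SE), adjusted p = 0.03, or 0.12 in the 8-library fit). For Rbm3 the first IRI 6 h library lay inside the UC-MSC range.

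Of 4546 genes with a mean above 50 CPM over the 16 libraries, 2 had a library at 0. These were Col4a1, a basement membrane collagen, and Pdgfrb, a receptor of pericytes, each at 0 in UC-MSC library 4. In UC-MSC libraries 1 to 3, Col4a1 had 1093, 1205 and 1357 CPM.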
